A study of Mus musculus with 103 samples.

Results

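Twist1, Twist2, Prrx1, Prrx2, Lhx6, Lhx8, Osr1 and Osr2, transcription factors that give facial mesenchyme its identity, were followed through an expression atlas of the early mouse face. They were chosen by gene symbol in the platform annotation and make up 8 of the 19938 genes measured. Each was read by 1 probe set, so no choice among probe sets was needed. The embryos were untreated CD1 mice, an outbred stock, and the tissue regions were cut from frozen sections by laser capture, amplified and hybridised to 1 Affymetrix whole-transcript array per sample. Of 103 samples, 102 fell into 22 groups of 4 to 7 libraries. At E8.5 the groups were mesenchyme, floor plate, non-floor plate and caudal neural epithelium, with 18 libraries. At E9.5 they were cranial mesenchyme, mandibular arch, maxillary arch, epidermal ectoderm, otic vesicle and neuroepithelium, with 34 libraries. At E10.5 they were maxillary arch, mandibular arch, medial nasal prominence, lateral nasal eminence, the epidermal ectoderm of the mandibular and of the maxillary arch, olfactory pit, Rathke's pouch and 4 regions of neuroepithelium, with 50 libraries. The neuroepithelium regions lay under the medial prominence, under the lateral prominence, at the midline and, as a control, away from the eminences. The labels tie no library to an embryo, so libraries of a group may share one and the p-values may be too small. All values are log2 of the ratio that the authors deposited, whose baseline is a ratio of 1 (0 on the log2 scale). They set libraries side by side for 1 gene and give no level from one gene to the next.

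Twist proteins are basic helix-loop-helix factors that bind E-boxes as dimers, and Twist1 is needed in the mouse for neural crest cells of the head to become mesenchyme. Prrx1 and Prrx2 are paired-related homeodomain factors that overlap in function in the lower jaw, where mouse embryos without both have a cleft, shortened mandible. Lhx6 and Lhx8 are LIM homeodomain factors of first arch mesenchyme that respond to Fgf8 from the oral ectoderm, and Osr1 and Osr2 are odd-skipped zinc finger factors, of which Osr2 is needed for palatal shelf growth and for the placing of teeth.

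Some libraries stood apart from their labels, and values without some of them are given below. E8.5 non-floor plate libraries 1 to 3 held surface epithelium markers (mean log2 ratio of the list 1.03 to 1.22, against -0.09 and -0.05 in libraries 4 and 5). Floor plate library 4 held them too (0.71), with mandibular arch markers (1.15). No fit left these E8.5 libraries out together. With each E8.5 library left out in turn, the count called in mesenchyme against neural epithelia stayed at 4. The 4 E10.5 libraries labelled mandibular arch held frontonasal markers (mean log2 ratio of the list 1.26 to 2.33) at the height of the lateral nasal eminence (1.33 to 2.69), and their first arch markers lay between -0.21 and 0.66, against 1.36 to 1.75 in the E9.5 mandibular arch. The 4 labelled mandibular arch ectoderm lacked surface epithelium markers (-0.40 to 0.05, against 1.20 to 1.75 in maxillary arch ectoderm) and held first arch markers (1.19 to 1.96). Libraries 1 and 3 of that group were closely alike (Pearson r 0.95 across genes). Of the 5 E10.5 maxillary arch libraries, 4 held surface epithelium markers (0.79 to 2.69), and the other was at -0.49. Libraries 1 and 3 of this group also held mandibular arch markers (1.79 and 1.09, against 0.08 to 0.40 in the others). Of the E9.5 maxillary arch libraries, 3, 4 and 5 held mandibular arch markers (1.21, 0.51 and 0.63, against -0.68 and -0.49 in libraries 1 and 2), below their level in mandibular arch (1.40 to 1.90). The 4 medial nasal prominence libraries held first arch markers (1.21 to 1.52, against 0.09 to 0.84 in lateral nasal eminence). Their frontonasal markers (0.52 to 1.18) lay below those of the lateral nasal eminence. No fit left this group out, and its results are given by label. The 2 E10.5 mandibular groups are called libraries labelled mandibular arch and labelled mandibular ectoderm below.

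Twist1, Twist2, Prrx1 and Prrx2 were called higher in mesenchyme than in neural tissue at all 3 stages. Lhx8 marked the first arch at E9.5, and Lhx6, Osr1 and Osr2 were called in 1 comparison each. Mesenchyme did not stand apart everywhere. Twist2 in E9.5 cranial mesenchyme (-0.82 to 1.43, median 0.54) overlapped epidermal ectoderm (-1.02 to 2.50, median -0.47). The means were 0.31 and -0.0047, the second raised by ectoderm library 2 at 2.50, with the others at -1.02 to 0.30. None of the 8 was called in E10.5 maxillary arch against its ectoderm, where only 0.01% of all genes were. There 4 of the 5 arch libraries held surface epithelium markers, so the missing calls say little about these genes. A gene was called where limma's Benjamini-Hochberg adjusted p was under 0.05. In E8.5 mesenchyme against the 3 neural epithelia, 4 of the 8 genes were called higher, where 1.65% of all genes were. In the 3 E9.5 mesenchymal regions against neuroepithelium 5 of 8 were called higher, with 1.46% of all genes. Against the surface epithelia of E9.5 (epidermal ectoderm and otic vesicle), 5 of 8 were called higher, with 17.1% of all genes. In the E10.5 nasal prominences against the neuroepithelium under them, 6 of 8 were called higher, with 5.98% of all genes, and in the olfactory pit against the nasal prominences 4 of 8 were called lower, with 0.231%. In laser-captured tissue, fewer cells of a type and less RNA per cell cannot be told apart.

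**Figure D1:**
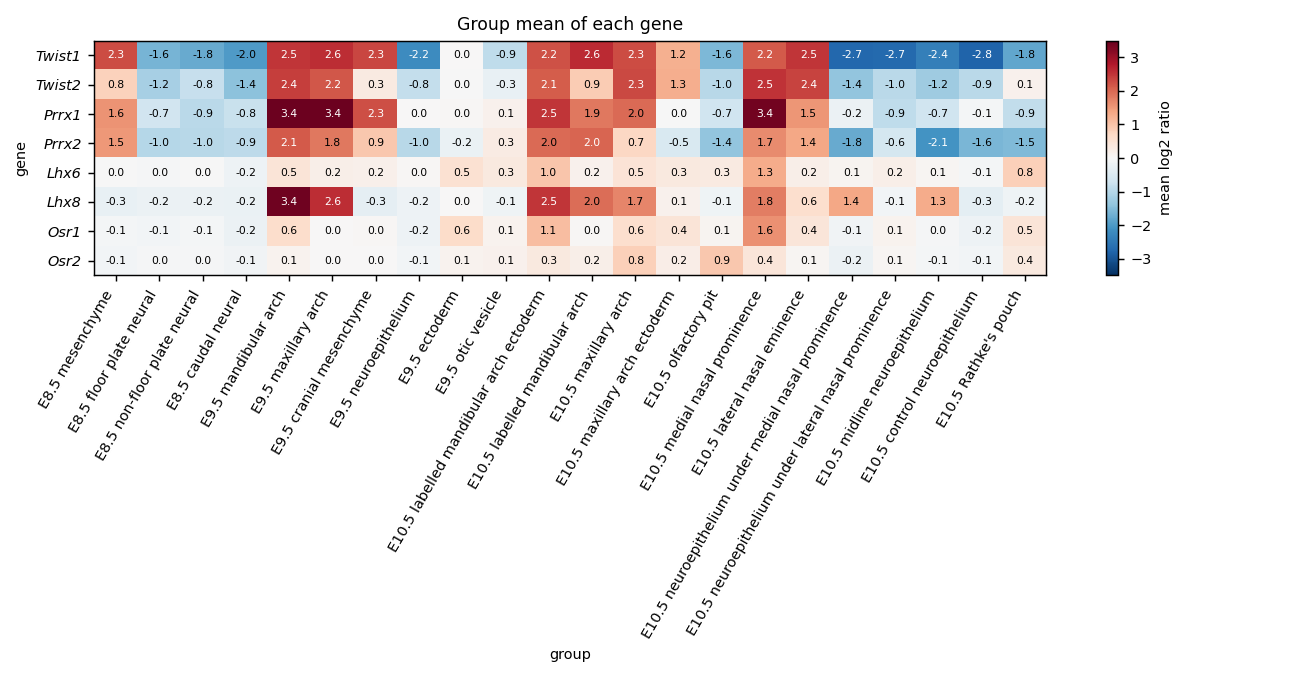
Mean log2 ratio of the 8 genes (rows) in the 22 groups (columns, by stage), coloured from blue (below the baseline) to red (above it). The Twist and Prrx genes are red in mesenchyme and arch columns and blue in most neural columns, with Prrx1 near the baseline in E9.5 neuroepithelium (0.02) and E10.5 control neuroepithelium (-0.06), Lhx8 is reddest in the E9.5 arches (3.41 and 2.59), and Lhx6, Osr1 and Osr2 stay pale, with means that span 1.50, 1.80 and 1.14.

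Twist1 had a span of 5.41 between its highest and lowest group means on the log2 scale and was high in mesenchyme at E8.5. In E8.5 mesenchyme it had log2 ratios of 2.36, 2.41, 2.41, 1.98 and 2.24. In E8.5 caudal neural epithelium the 4 libraries had -1.15, -1.93, -3.17 and -1.63, in floor plate -2.69, -1.38, -3.04 and 0.59, and in non-floor plate -2.27, -0.89, -2.54, -1.72 and -1.40. Mesenchyme lay above each neural library, although floor plate library 4 stood well above the rest of its group. Twist1 was 4.07 ± 0.53 (SE) higher in mesenchyme, or 16.8-fold, with an adjusted p of 1.39e-08.

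At E9.5 Twist1 was at 2.70, 2.82, 2.50, 2.16 and 2.36 in mandibular arch and at 2.75, 2.95, 2.89, 2.35 and 1.98 in maxillary arch. The 6 cranial mesenchyme libraries ran from 1.81 to 2.67 with a median of 2.42. Neuroepithelium had -2.60, 0.00, -2.95, -2.42 and -3.05, its second library high. The mesenchymal and neural libraries did not overlap, and the difference was 4.68 ± 0.51 (SE, 25.7-fold, adjusted p = 9.01e-11). The surface epithelia overlapped the mesenchyme: epidermal ectoderm ran from -2.84 through a median of 0.86 to 1.53, and otic vesicle from -3.22 through -1.01 to 2.10. Mesenchyme was 2.91 ± 0.37 higher than these (7.51-fold, adjusted p = 1.28e-08). The otic library at 2.10 was number 3, which with number 5 lacked surface epithelium markers (-0.04 and -0.57, against 1.65 to 2.33 in the other 4). Without these 2 libraries the same 5 genes were called against surface epithelia, with Twist1 at 2.99. Between the first arch and cranial mesenchyme the Twist1 difference was 0.20 (95% interval -0.82 to 1.23, adjusted p = 0.897).

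At E10.5 Twist1 had its largest difference of the series' comparisons made here. Medial nasal prominence was at 2.00, 1.45, 2.46 and 2.70 and lateral nasal eminence at 2.43, 2.54, 2.55 and 2.49. The neuroepithelium beneath them was at -2.02, -3.14, -2.84 and -2.99 on the medial side and at -2.29, -2.37, -3.22 and -2.98 on the lateral side. No library of one tissue reached the other, and the prominences were 5.06 ± 0.50 higher (33.3-fold, adjusted p = 1.62e-12). The olfactory pit, a placode that sinks in between the prominences, was at -1.11, -0.89, -1.72 and -2.58. Its Twist1 fell by 3.90 ± 0.61 relative to the prominences (adjusted p = 1.22e-05), again without overlap.

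Over the 22 groups the 9 highest Twist1 means, from 2.60 ± 0.25 in the libraries labelled mandibular arch to 2.15 ± 0.55 in medial nasal prominence (SD, n = 4 each), lay closer together than 1 SD of the last of them. Maxillary arch ectoderm followed at 1.24 ± 1.53 (SD, n = 4), its libraries at -0.95, 1.35, 2.44 and 2.11. The largest step in the order, 1.21, came below it, before E9.5 epidermal ectoderm at 0.02 ± 1.69 (SD, n = 7). No step between neighbours exceeded the larger of the 2 groups' SDs. The lowest mean was -2.80 ± 0.55 in E10.5 control neuroepithelium (SD, n = 4).

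Twist2, also known as Dermo1 and expressed in mesenchyme that includes the forming dermis, was closer to the baseline in head mesenchyme than in the E9.5 arches and the nasal prominences. The E10.5 libraries labelled mandibular arch, at 0.90 ± 1.08 (SD, n = 4; -0.70 to 1.64), were near E8.5 mesenchyme (0.81). In E8.5 mesenchyme it was at 0.32, 0.54, 1.43, 1.00 and 0.75, against -1.59 to 0.00 in the 13 neural libraries. These did not overlap, and the difference was 1.94 ± 0.47 (SE, 3.85-fold, adjusted p = 0.00573). At E9.5 mandibular arch had 1.85, 2.63, 3.11, 1.37 and 3.16 and maxillary arch 3.08, 2.45, 0.55, 1.75 and 3.07, while the 6 cranial mesenchyme libraries ran from -0.82 to 1.43 with a median of 0.54. Mandibular library 5 (1.37) and maxillary library 3 (0.55) lay within the cranial range and the other 8 arch libraries above it. Twist2 averaged 2.30 ± 0.89 in the arches (SD, n = 10) and 0.31 ± 0.87 in cranial mesenchyme (SD, n = 6), a 3.98-fold difference (1.99 ± 0.46, adjusted p = 0.0128). That call was lost without cranial mesenchyme library 4 (adjusted p = 0.069) or 5 (0.079), after quantile normalization (0.053) and when the 2 sides were fitted alone (0.27).

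The nasal prominences also stood above E9.5 cranial mesenchyme in Twist2, 1 of 8 genes called higher in that comparison, with 0.707% of all genes. Medial nasal prominence had 1.84, 2.58, 2.97 and 2.72 and lateral nasal eminence 2.95, 1.25, 2.00 and 3.23, so that 1 lateral library fell within the cranial range. The difference was 2.13 ± 0.48 (SE, 4.38-fold, adjusted p = 0.00582, and 0.075 when fitted alone). The prominences were also above the neuroepithelium under them, at -1.56 to -0.76, without overlap, and Twist2 was 3.61 ± 0.44 higher in the prominences (12.2-fold, adjusted p = 3.11e-09). The olfactory pit, at -0.85, -1.32, -0.65 and -1.06, was below all 8 prominence libraries, and Twist2 fell there by 3.41 ± 0.54 (adjusted p = 1.68e-05). In E9.5 mesenchyme Twist2 was 2.47 higher than in neuroepithelium (adjusted p = 0.000105) and 1.77 higher than in surface epithelia (adjusted p = 7.57e-05), with overlapping libraries in both.

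In the E10.5 libraries labelled mandibular ectoderm Twist2 was at 0.50, 3.46, 0.90 and 3.62, and in maxillary ectoderm at -0.69, 0.13, 2.16 and 3.48. Both groups held libraries on either side of the step, which their means of 2.12 ± 1.65 and 1.27 ± 1.90 (SD, n = 4 each) hide.

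**Figure D2:**
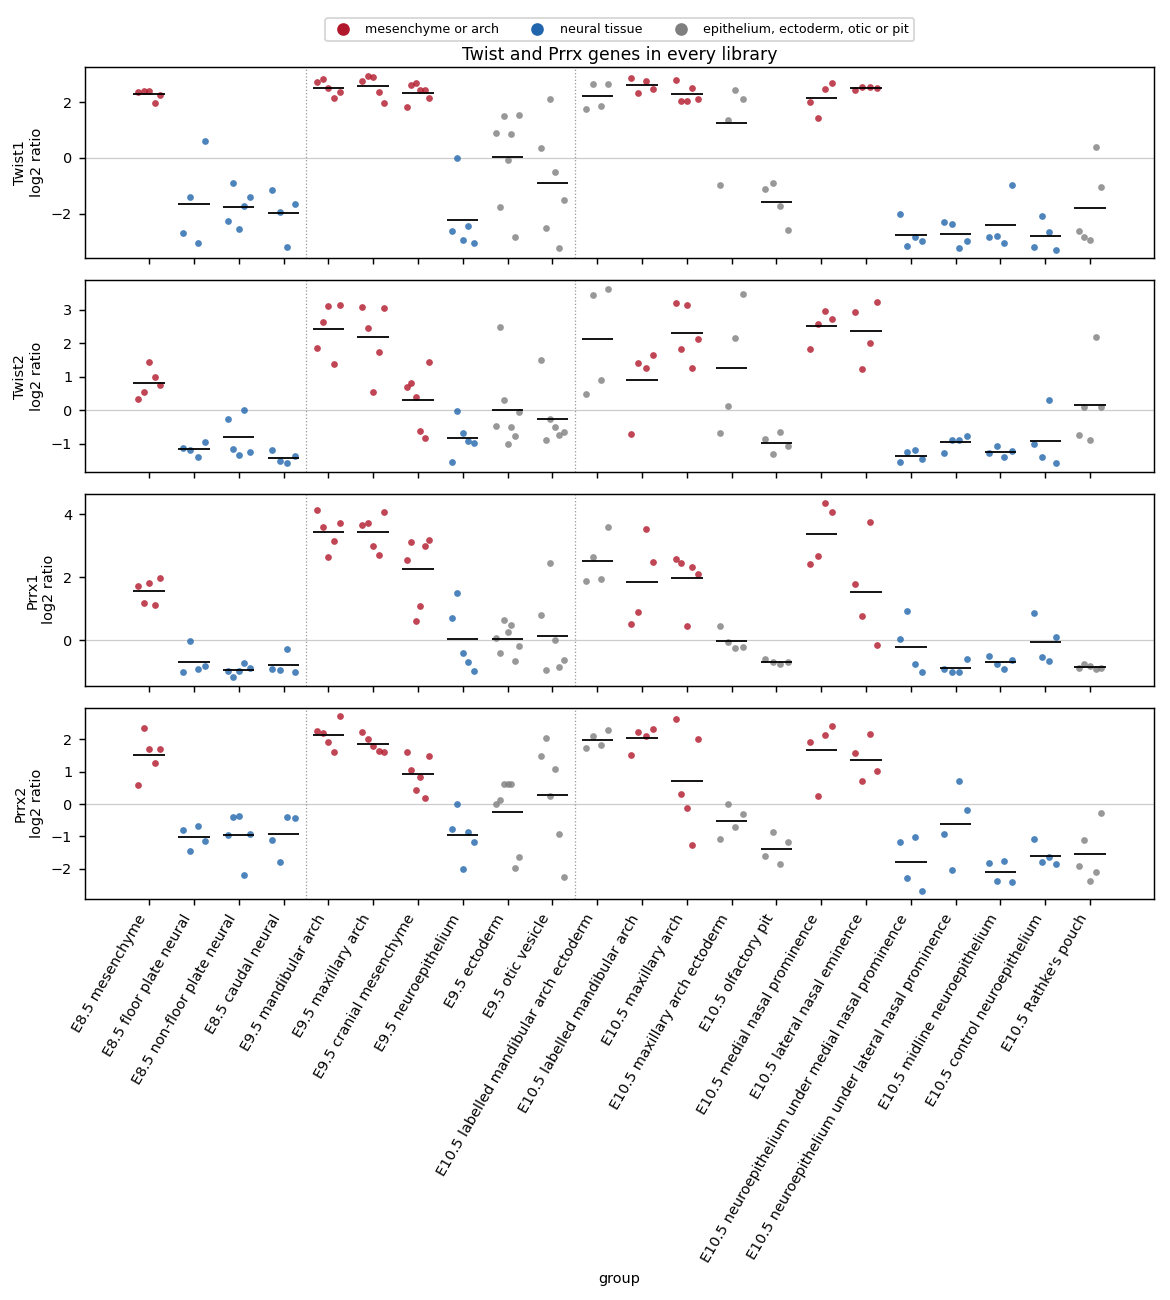
Log2 ratio of Twist1, Twist2, Prrx1 and Prrx2 (panels, vertical axis) in each library (dots) of the 22 groups (horizontal axis), with the group mean as a black line; red is mesenchyme or arch, blue neural tissue and grey epithelium. The 5 E8.5 mesenchyme dots of Twist1 lie between 1.98 and 2.41, above each E8.5 neural dot, and grey groups such as otic vesicle (-3.22 to 2.10) spread across both ranges.

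Prrx1 and Prrx2 followed the Twist genes at E8.5 and E9.5. Prrx1 was at 1.73, 1.18, 1.83, 1.11 and 1.96 in E8.5 mesenchyme and between -1.17 and -0.01 in the 13 neural libraries. Prrx2 was at 0.58, 2.34, 1.70, 1.26 and 1.70 in E8.5 mesenchyme and between -2.17 and -0.38 in neural libraries. Neither gene overlapped. Prrx1 was 2.37 ± 0.42 higher in mesenchyme (SE, 5.16-fold, adjusted p = 3.83e-05) and Prrx2 2.48 ± 0.44 higher (5.58-fold, adjusted p = 3.68e-05). With the Twist genes this made 4 of 8 whose libraries did not overlap, which 0.607% of all genes showed in that direction.

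Prrx1 had its highest group means in the E9.5 mandibular and maxillary arch (3.44 and 3.42), which did not differ beyond their spread from medial nasal prominence at E10.5 (3.38 ± 0.99, SD, n = 4). It was at 4.12, 3.59, 2.65, 3.14 and 3.71 in mandibular and 3.64, 3.73, 2.98, 2.70 and 4.07 in maxillary arch. Cranial mesenchyme ran from 0.62 through a median of 2.76 to 3.18, with libraries 3 and 4 low. Neuroepithelium had 0.71, 1.48, -0.40, -0.70 and -0.97, its first 2 libraries high and overlapping the low cranial pair. The 16 mesenchymal libraries were 3.01 ± 0.41 above neuroepithelium (SE, 8.08-fold, adjusted p = 7.34e-08) and 2.95 ± 0.30 above surface epithelia (7.74-fold, adjusted p = 3e-12). Arches against cranial mesenchyme gave 1.18 (95% interval 0.37 to 2.00) with an adjusted p of 0.15.

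Prrx2 had 2.26, 2.20, 1.92, 1.61 and 2.70 in E9.5 mandibular and 2.21, 1.99, 1.78, 1.64 and 1.61 in maxillary arch, and cranial mesenchyme ran from 0.20 through 0.94 to 1.60. The arch libraries lay just above the cranial ones, but the difference of 1.06 (95% interval 0.21 to 1.91) had an adjusted p of 0.236. In the E9.5 neuroepithelium Prrx2 was at -0.76, 0.00, -2.01, -0.87 and -1.18, below each mesenchymal library. The difference was 2.60 ± 0.43 (SE, 6.07-fold, adjusted p = 8.75e-06). Twist1 and Prrx2 were the 2 genes of the 8 without overlap in that comparison, a state 0.276% of all genes shared in that direction. Against the surface epithelia, whose libraries ran from -2.24 to 2.04 and overlapped widely, Prrx2 was 1.62 ± 0.31 higher (adjusted p = 0.000109).

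At E10.5 Prrx1 was at 2.40, 2.66, 4.36 and 4.08 in medial nasal prominence and at 1.79, 0.75, 3.74 and -0.16 in lateral nasal eminence. In the neuroepithelium it was at 0.04, 0.92, -0.77 and -1.01 on the medial side and between -1.02 and -0.59 on the lateral side. The fourth lateral nasal library lay inside the neural range. Prrx1 was 3.00 ± 0.40 higher in the prominences (SE, 7.99-fold, adjusted p = 2.54e-08). Prrx2 had 1.92, 0.23, 2.11 and 2.40 in medial nasal prominence and 1.56, 0.71, 2.16 and 1.01 in lateral nasal eminence, against -2.66 to 0.71 in the 8 neural libraries. It was 2.70 ± 0.41 higher in the prominences (6.51-fold, adjusted p = 1.56e-06), with overlap. Twist1 and Twist2 were the 2 of 8 genes without overlap in that comparison, where 0.381% of all genes had none in that direction. Lateral nasal library 3 resembled the libraries labelled mandibular arch 2 and 4, and with these 3 omitted the same 6 genes were called (Prrx1 2.63, Prrx2 2.57).

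In the olfactory pit Prrx1 was at -0.60, -0.68, -0.76 and -0.70 and Prrx2 at -1.61, -0.87, -1.85 and -1.18, below each nasal prominence library. Prrx1 fell there by 3.14 ± 0.49 (adjusted p = 1.09e-05) and Prrx2 by 2.89 ± 0.51 (adjusted p = 0.000139). The Prrx1 call was lost when the 2 sides were fitted alone (adjusted p = 0.11), and all 4 calls held with lateral nasal library 3 omitted (Prrx1 -2.77, Prrx2 -2.76). With Osr1, 5 of the 8 genes had all pit libraries below all prominence libraries, where 0.421% of all genes did. In the same comparison 5 of 11 surface epithelium markers were called higher in the pit (Cldn7 4.75, Epcam 4.49 and Cldn6 3.97), with 0.682% of all genes. Their part in the result was not tested.

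The libraries labelled mandibular ectoderm and maxillary ectoderm differed in the Prrx genes, 2 of 8 called higher where 0.677% of all genes were. Prrx1 was at 1.89, 2.64, 1.94 and 3.58 in the libraries labelled mandibular ectoderm, against 0.45, -0.05, -0.26 and -0.21 in maxillary ectoderm. Prrx2 was at 1.73, 2.08, 1.83 and 2.27 in the first group, against -1.07, -0.01, -0.72 and -0.31 in maxillary ectoderm. The difference was 2.53 ± 0.56 for Prrx1 (SE, 5.77-fold, adjusted p = 0.00786) and 2.50 ± 0.59 for Prrx2 (5.66-fold, adjusted p = 0.0142). The libraries of both genes, and of Lhx6 and Lhx8, did not overlap, 4 of 8 where 4.44% of all genes showed this in that direction. The Prrx1 call was lost without library 4 of the labelled mandibular ectoderm or with the 2 groups fitted alone (adjusted p = 0.052 and 0.056), and the Prrx2 call without maxillary ectoderm library 1 (0.052). With the alike libraries 1 and 3 averaged into 1, both were called (Prrx1 2.73, adjusted p = 0.00825, and Prrx2 2.57, adjusted p = 0.0234). Surface epithelium markers moved the other way, with 3 of 11 called lower (Cldn7 -4.89, Cldn6 -3.71 and Epcam -3.47), where 0.632% of all genes were. Their part in the result was not tested.

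Prrx1 was lower in the E10.5 than in the E9.5 maxillary arch without passing the test. Its E10.5 values were 2.56, 2.43, 0.44, 2.32 and 2.10, each below the lowest E9.5 library (2.70). It was 1 of 8 genes so placed, against 2.16% of all genes, and the difference was -1.45 (95% interval -2.45 to -0.45, adjusted p = 0.0536). The adjusted p ran from 0.0162 with array weights to 0.334 with the fifth E10.5 library alone over the settings tried, and from 0.0254 to 0.159 on leaving out 1 library. In the same comparison 3 of 11 surface epithelium markers were called higher, with 1.68% of all genes. Of 9 endothelial markers 8 were called lower, with 6.88% of all genes. The part of either list in the Prrx1 result was not tested.

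Promoters of the 4 genes called higher in mesenchyme than in neural tissue at all 3 stages are shown because the results turn on them. Each sequence is 300 bases from 250 before to 50 after the RefSeq start, on build GRCm38.p6, read 5′ to 3′ on the gene's strand. Capitals mark matches on either strand to 3 motifs. One is the homeodomain core TAATTA. Another is the TATA box, searched as TATAAA. The last is the CCAAT box, searched by those letters.
Twist1 (chr12:33957421-33957720, plus strand): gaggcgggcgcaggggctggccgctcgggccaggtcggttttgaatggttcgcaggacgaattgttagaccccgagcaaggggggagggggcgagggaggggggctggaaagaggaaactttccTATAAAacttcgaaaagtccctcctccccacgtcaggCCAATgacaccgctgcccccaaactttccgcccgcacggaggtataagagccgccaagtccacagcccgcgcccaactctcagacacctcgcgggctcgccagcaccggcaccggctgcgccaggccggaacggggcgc
Twist2 (chr1:91801211-91801510, plus strand): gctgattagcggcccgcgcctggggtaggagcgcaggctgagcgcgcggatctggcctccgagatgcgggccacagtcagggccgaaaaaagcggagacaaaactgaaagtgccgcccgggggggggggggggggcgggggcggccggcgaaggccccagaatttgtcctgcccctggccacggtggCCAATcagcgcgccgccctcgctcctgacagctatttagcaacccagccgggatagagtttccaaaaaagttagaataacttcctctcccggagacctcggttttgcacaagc
Prrx1 (chr1:163313601-163313900, minus strand): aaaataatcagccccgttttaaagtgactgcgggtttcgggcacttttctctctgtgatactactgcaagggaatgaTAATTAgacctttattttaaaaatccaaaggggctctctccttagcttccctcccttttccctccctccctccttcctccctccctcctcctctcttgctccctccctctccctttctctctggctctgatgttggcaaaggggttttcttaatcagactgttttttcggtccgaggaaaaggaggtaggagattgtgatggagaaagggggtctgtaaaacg
Prrx2 (chr2:30845117-30845416, plus strand): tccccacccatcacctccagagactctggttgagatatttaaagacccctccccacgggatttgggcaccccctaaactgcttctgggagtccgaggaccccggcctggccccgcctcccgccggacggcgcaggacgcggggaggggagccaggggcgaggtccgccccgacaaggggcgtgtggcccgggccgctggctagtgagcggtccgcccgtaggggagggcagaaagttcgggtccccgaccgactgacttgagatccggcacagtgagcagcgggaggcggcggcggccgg
Twist1 held 1 TATA box and 1 CCAAT box, Twist2 1 CCAAT box, Prrx1 1 homeodomain core and Prrx2 none of these. The E-box letters CANNTG, which Twist dimers bind, were in none of these 4 windows, and of the 8 RefSeq promoters of 6 of the 8 genes they were in 1, an Lhx6 promoter. The E-box stood in 72.3% of 32851 mouse promoters of the same length, the homeodomain core in 5.29%, the TATA box in 13.6% and the CCAAT box in 37.4%. No 2 matches overlapped. GC content was 66.0% in Twist1, 64.7% in Twist2, 70.3% in Prrx2 and 47.7% in Prrx1. A match describes the letters and is neither a site nor a cause, and no match says only that the letters are not in the window.

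Lhx8 was at the baseline outside the first arch at E8.5 and E9.5 and high in most arch libraries. It was at -0.31, -0.38, -0.37, 0.10 and -0.40 in E8.5 mesenchyme, and the 13 E8.5 neural libraries ran from -0.43 to 0.01, with a difference of -0.06 (95% interval -1.26 to 1.14). In E9.5 mandibular arch it was at 3.76, 3.81, 4.09, 0.93 and 4.47 and in maxillary arch at 4.64, 2.73, 1.36, -0.01 and 4.23, while cranial mesenchyme ran from -0.39 through -0.35 to -0.14. Mandibular library 5 (0.93) and maxillary libraries 3 and 4 were the low ones, and even these lay above each cranial library. Lhx8 averaged 3.00 ± 1.66 in the arches (SD, n = 10) and -0.31 ± 0.10 in cranial mesenchyme (SD, n = 6), a difference of 3.31 ± 0.59 (SE, 9.92-fold, adjusted p = 0.000225). With the 2 sides fitted alone the adjusted p was 0.15, and with maxillary arch reduced to libraries 1 and 2 the difference was 3.86. It was called higher with Twist2, 2 of 8 genes where 0.742% of all genes were, and Lhx8 and Prrx2 were the 2 of 8 without overlap, where 0.0502% of all genes had none in that direction.

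Arch genes from the other lists moved in the same comparison, where 0.742% of all genes were called higher and 0.191% lower. Of 5 first arch markers 2 were called higher (Barx1 4.84, Dlx1 2.02), of 7 mandibular markers 5 (among them Dlx5 4.26), and of 5 frontonasal markers 3 lower (Alx1 -3.37, Six2 -3.21, Tfap2b -2.49). Hand2, a helix-loop-helix factor of the lower arch and a Twist1 partner, was called higher by 1.42, 1 of 9 in its list. None of 9 LIM cofactors, which bind LIM homeodomain proteins, and none of 9 other LIM homeobox genes was called by limma, with 3 and 1 at an unadjusted p under 0.05.

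Lhx8 in E9.5 mesenchyme as a whole was 2.09 ± 0.59 above neuroepithelium (SE, 4.24-fold, adjusted p = 0.0286), whose libraries were at 0.24, -0.39, -0.28, -0.22 and -0.29. Cranial mesenchyme (-0.39 to -0.14) and maxillary arch library 4 (-0.01) overlapped the neural libraries. The call was lost without maxillary arch library 1 (adjusted p = 0.059) or without any of neuroepithelium libraries 2 to 5 (0.073 to 0.084), and with the groups fitted alone (0.092). Against surface epithelia, at -0.34 to 0.47, the difference was 1.97 ± 0.43 (adjusted p = 0.000617).

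At E10.5 Lhx8 split groups into high and low libraries. Libraries labelled mandibular arch were at 4.29, -0.39, 4.36 and -0.42 and those labelled mandibular ectoderm at 0.42, 4.62, 0.40 and 4.51. Of the first group, libraries 2 and 4 are the low ones, and both resembled lateral nasal library 3 (Pearson r 0.615 and 0.808 across genes), where Lhx8 was at -0.47. Of the second group, libraries 1 and 3, which were closely alike, are the low ones. Medial nasal prominence was at 1.05, 0.29, 1.71 and 4.16, lateral nasal eminence at -0.13, -0.13, -0.47 and 3.09, and maxillary arch at 3.12, 0.24, 2.12, 0.34 and 2.70. Maxillary ectoderm stayed between 0.01 and 0.31 and olfactory pit between -0.31 and 0.09.

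Lhx8 was also above the baseline in some E10.5 neural libraries. Midline neuroepithelium was at 1.58, 0.33, 0.92 and 2.41, each above the control neuroepithelium at -0.40, -0.16, -0.24 and -0.52. This pair is outside the 19 comparisons, and neither a test nor the share of all genes so separated was run for it. Neuroepithelium under the medial prominence was at -0.37, 1.05, 0.06 and 4.69, and that under the lateral prominence between -0.20 and 0.00. With these, nasal prominences and the neuroepithelium under them differed in Lhx8 by 0.56 (95% interval -0.57 to 1.70, adjusted p = 0.506). In the mouse forebrain Lhx8 is known as a factor of ventral telencephalic neurons.

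**Figure D3:**
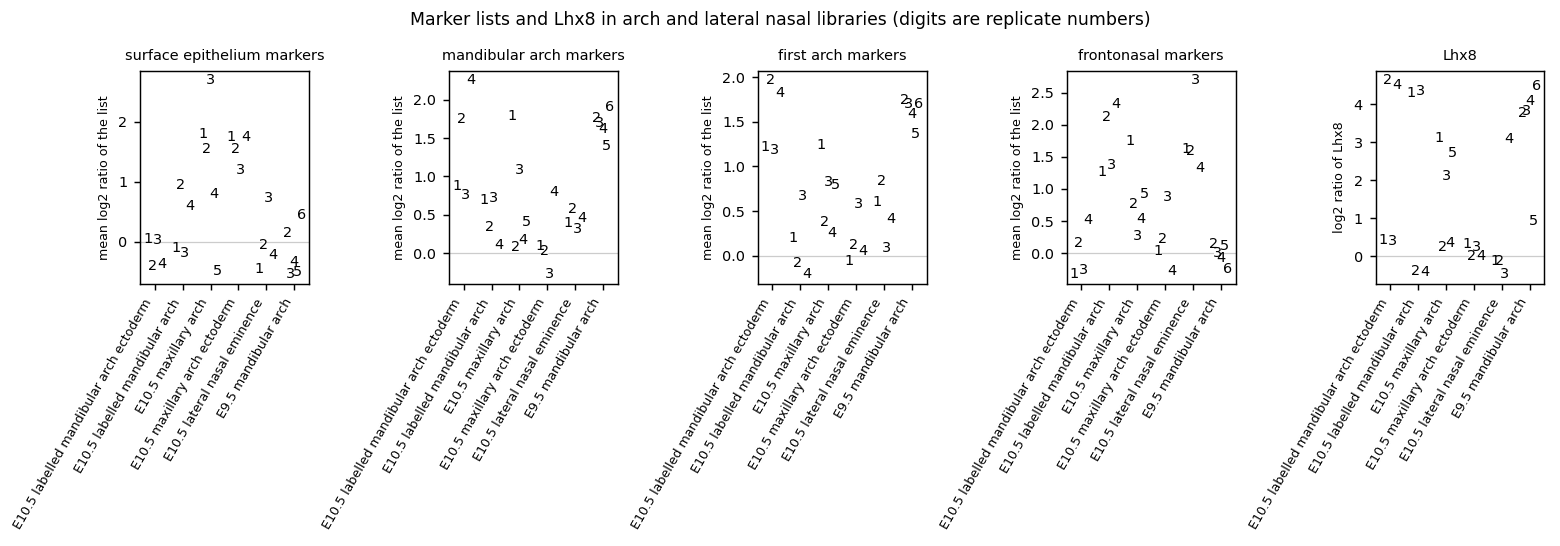
Mean log2 ratio of the surface epithelium, mandibular arch, first arch and frontonasal marker lists and of Lhx8 (panels, vertical axis) in each library (digits are replicate numbers) of 5 E10.5 groups and the E9.5 mandibular arch. Libraries 1 and 3 labelled mandibular arch have Lhx8 above 4, at 4.29 and 4.36, and libraries 2 and 4 are at -0.39 and -0.42.

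Lhx6, which works with Lhx8 in the jaw, had a much narrower range. Its highest mean, 1.31 ± 0.29 in medial nasal prominence (SD, n = 4; libraries 1.29, 1.42, 0.92 and 1.60), stood above the next by more than the larger SD, and the next was 0.96 ± 0.33 in the libraries labelled mandibular ectoderm (0.99, 0.79, 0.65 and 1.40). Rathke's pouch followed at 1.12, 1.62, 0.22, 0.78 and 0.48. The E9.5 mandibular arch was at -0.26, 1.34, 0.73, 0.04 and 0.42 and maxillary arch at 0.70, -0.48, -0.24, 0.50 and 0.50, where Lhx8 was high. The first arch differed from cranial mesenchyme by 0.16 in Lhx6 (95% interval -0.24 to 0.56).

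Medial nasal prominence held first arch markers (mean of the list 1.21 to 1.52 per library), whose part in its Lhx6 level was not tested. Lateral nasal eminence had Lhx6 at 0.18, 0.48, -0.20 and 0.35, below each medial library. It was 1 of 8 genes without overlap between medial and lateral, against 1.55% of all genes, and the difference of 1.11 ± 0.27 (SE, 2.16-fold) did not pass, with an adjusted p of 0.0597. The adjusted p ran from 0.0363 with array weights to 0.592 with the 2 groups fitted alone over the settings tried, and from 0.0257 without medial library 3 to 0.185 without medial library 2 on leaving out 1 library. Both prominences together were 0.59 ± 0.19 above the neuroepithelium under them, at -0.14 to 0.50 (1.51-fold, adjusted p = 0.0212), with overlap. That call was lost without lateral nasal library 2 or lateral neuroepithelium library 1 (adjusted p = 0.052 in both) and with the widely spread arrays left out (0.058). It was also lost when the replicate number was a block (0.2), a fit with the lateral neuroepithelium alone as reference.

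**Figure D4:**
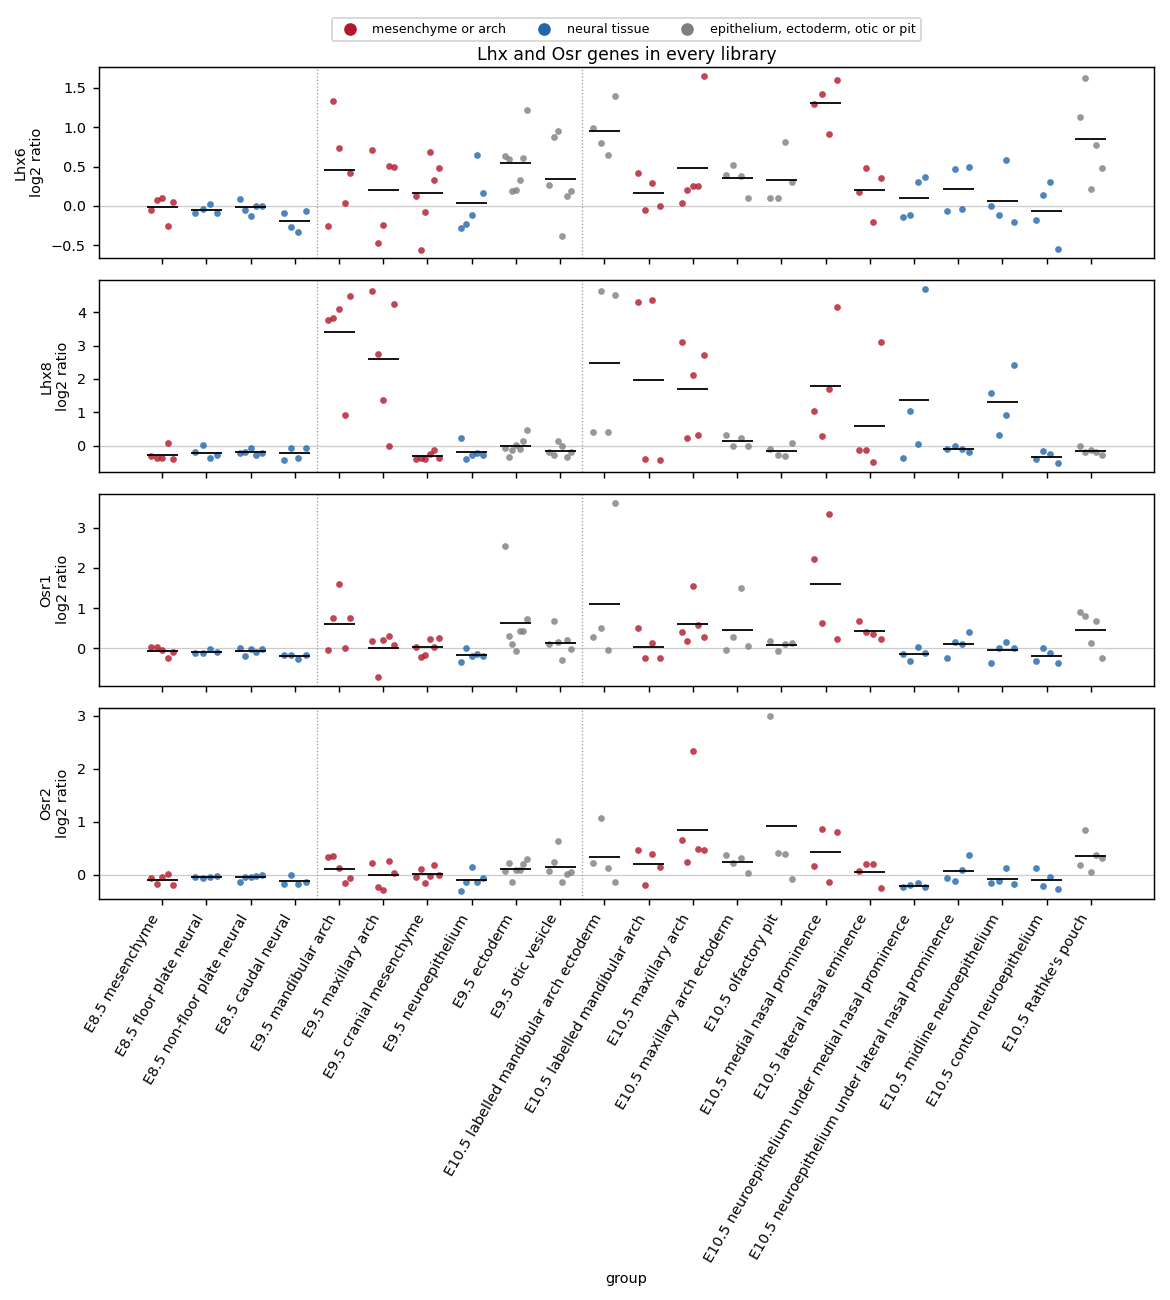
Log2 ratio of Lhx6, Lhx8, Osr1 and Osr2 (panels, vertical axis) in each library (dots) of the 22 groups (horizontal axis), with the group mean as a black line and the same colours for mesenchyme, neural tissue and epithelium. Lhx8 dots split into high and low within groups, such as 4.36 and -0.42 in the libraries labelled mandibular arch, and most Osr1 and Osr2 dots lie near 0 with single high ones such as 3.62 and 2.99.

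Osr1 and Osr2 were near the baseline in most groups, with single high libraries. Osr1 was highest in medial nasal prominence, at 2.23, 0.63, 3.34 and 0.22, and stood at 0.68, 0.42, 0.36 and 0.22 in lateral nasal eminence. The neuroepithelium under them was at -0.14, -0.31, 0.03 and -0.11 on the medial side and at -0.23, 0.15, 0.11 and 0.41 on the lateral side. The overlap was narrow, and Osr1 was 1.02 ± 0.29 higher in the prominences (SE, 2.03-fold, adjusted p = 0.0087). The call was lost with the groups fitted alone (adjusted p = 0.063). It was also lost with the replicate number as a block (0.16), where the lateral neuroepithelium alone was the reference. Against E9.5 cranial mesenchyme the prominences gave 0.98 (adjusted p = 0.0576), which was called in 5 of 10 settings tried (adjusted p 0.0208 to 0.244) and in 2 of 14 fits that left out 1 library (0.0139 to 0.164). The olfactory pit, at 0.19, -0.07, 0.11 and 0.14, gave -0.92 against the prominences (adjusted p = 0.346).

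Osr2, the palate and tooth factor, was called in 1 comparison, maxillary arch at E10.5 against E9.5, where it was 1 of 8 genes called higher and 1.68% of all genes were. It was at 0.66, 0.24, 2.34, 0.49 and 0.48 at E10.5 and at 0.23, -0.23, -0.28, 0.25 and 0.03 at E9.5. The lowest E10.5 library lay within the E9.5 range and the other 4 above it. The difference was 0.84 ± 0.25 (SE, 1.79-fold, adjusted p = 0.0242). Without E10.5 library 3 the difference was 0.47 (adjusted p = 0.17), and the call was also lost without E9.5 library 2 (0.097) or 3 (0.078), with the fifth E10.5 library alone (0.44) and with the 2 groups fitted alone (0.29). In the same comparison 3 of 11 surface epithelium markers were called higher (Epcam 2.51). Of 9 endothelial markers 8 were called lower (Cldn5 -3.20), where 6.88% of all genes were. The part of either list in the Osr2 result was not tested.

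In the olfactory pit Osr2 had 2.99 in library 1, against 0.41, 0.40 and -0.08 in the other 3, and the highest mean of the 22 groups, 0.93 ± 1.39 (SD, n = 4), had that library far above the rest. Its difference from the prominences, 0.69, had an adjusted p of 0.236. It was 0.0031 without that library, and 1.03 and called (adjusted p = 0.0194) without pit library 4.

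**Figure D5:**
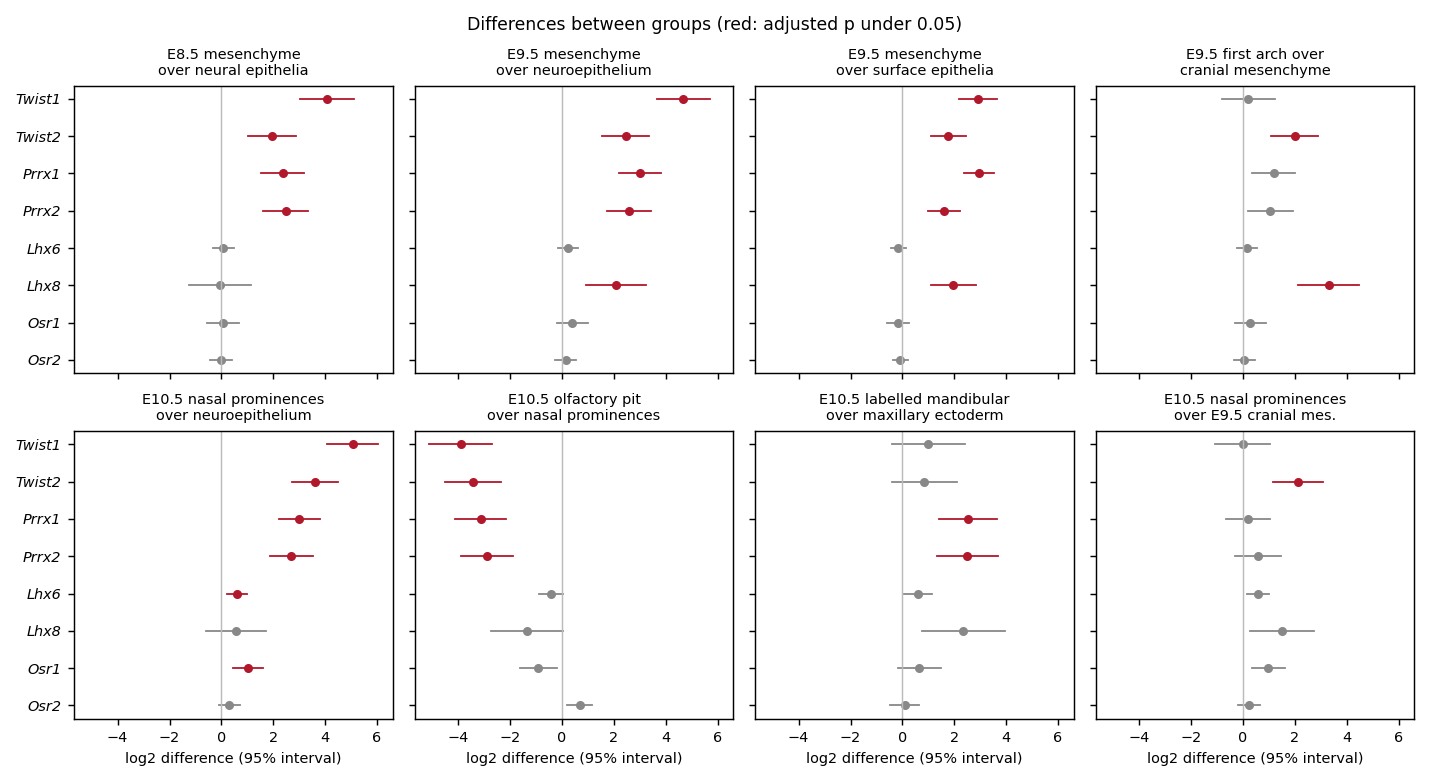
Log2 difference of each gene (rows) with its 95% interval (bars) in 8 comparisons (panels); red points have an adjusted p under 0.05. The Twist and Prrx points are red and right of 0 in mesenchyme against neural tissue (Twist1 4.07, 4.68 and 5.06) and red and left of 0 in olfactory pit against nasal prominences (Twist1 -3.90).

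Paralogues followed each other to different degrees over the 22 group means, which share arrays and a baseline, and the coefficients are given as a description. Pearson's r was 0.905 for Twist1 and Twist2 (Spearman's rho 0.815), 0.906 for Prrx1 and Prrx2 (0.839), 0.417 for Lhx6 and Lhx8 (0.594) and 0.519 for Osr1 and Osr2 (0.846). Some pairs across families were closer, Lhx6 with Osr1 at 0.937 and Twist1 with Prrx2 at 0.923. Predicted genes, small RNAs and chemosensory receptors were left aside in ranking the genes most like each. Inka1 (0.959), Tmem119 (0.946) and Pcolce (0.924) were most like Twist1. Twist2 was most like Twist1, Prrx1 (0.870) and Barx1 (0.865), and Prrx1 most like Prrx2, Col26a1 (0.884) and Adcy4 (0.882). For Prrx2 the closest were Tmem119 (0.943), Twist1 and Cd248 (0.920). For Lhx8 they were Barx1 (0.844), Olfml1 (0.812) and Lsp1 (0.794), all weaker. Lhx6 was followed by Osr1, Cdv3 (0.916) and Zfp703 (0.910), Osr1 by Lhx6 and Sash1 (0.873), and Osr2 by Cldn23 (0.898), Ntf5 (0.878) and Slc16a8 (0.869).

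Genes that work with Twist proteins were counted in the same comparisons. Of 9 helix-loop-helix partners and inhibitors (E proteins, Id proteins and Hand factors), limma called none in E8.5 mesenchyme against neural epithelia. There 2.4% of all genes were called, and 1 of the 9 had an unadjusted p under 0.05. At E9.5, 2 were called higher than in neuroepithelium (Id1 1.39, Hand2 0.90), with 1.46% of all genes, and 1 lower (Id4 -2.08), with 1.14%. In the nasal prominences 2 were called higher than in the neuroepithelium under them (Id1 2.41, Id2 2.02), with 5.98% of all genes. There 1 was called lower (Id4 -3.18), with 14.9% of all genes. Id proteins are inhibitors that bind E proteins and keep them from DNA. The list medians were 0.08 at E9.5 and 0.33 in the prominences, beside 0.00 and -0.05 over all genes.

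Mesenchymal transition genes were called in both directions. In E8.5 mesenchyme 4 of 10 were called higher than in neural epithelia, with 1.65% of all genes. Among them were the zinc finger repressors Snai1 (2.88) and Snai2 (2.64) and the intermediate filament Vim (1.86). At E9.5, 3 were called higher than in neuroepithelium (Snai1 3.27, Cdh11 2.07, Snai2 2.05), with 1.46% of all genes, and 1 lower, with 1.14%. In the nasal prominences 2 were called higher than in the neuroepithelium (Snai2 2.35, Snai1 2.09), with 5.98% of all genes. There 4 were called lower (Vim -1.60 among them), with 14.9% of all genes.

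LIM cofactors were counted in the same way. Lmo2, which also acts in blood and vessel cells, was called higher in E8.5 mesenchyme (2.63, 1 of 9, with 1.65% of all genes). With Ldb2 it was called higher in E9.5 mesenchyme against neuroepithelium (1.75 and 1.30, 2 of 9, with 1.46% of all genes). Lmo1 (-3.53) and Ssbp2 (-2.59) were called lower in the nasal prominences than in the neuroepithelium, 2 of 9, with 14.9% of all genes. Of the 9 other LIM homeobox genes, Isl1 (-3.10) and Lhx2 (-2.65) were called lower there, beside the same 14.9%. Lmx1b (0.67) was called higher there, with 5.98% of all genes. Of 11 signals known upstream in the arch, 1 was called lower in E9.5 mesenchyme than in neuroepithelium (Fgf8 -1.70), with 1.14% of all genes. In the prominences 3 were called higher than in the neuroepithelium (Bmp4 3.37, Bmp7 1.37, Fgf10 0.91), with 5.98%.

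Endothelial markers were higher in the same mesenchyme libraries. In E8.5 mesenchyme 8 of 9 endothelial markers were called higher than in neural epithelia, with 1.65% of all genes. The mean of the list ran there from 1.33 to 2.18 per library, against -0.42 to 0.00 in neural libraries. At E9.5 the list ran from 0.62 to 2.01 in cranial mesenchyme, 1.16 to 1.86 in mandibular arch and 0.30 to 2.06 in maxillary arch, against -0.37 to 0.02 in neuroepithelium. Their part in the results was not tested. In the nasal prominences against the neuroepithelium under them limma called none of the 9 (1 at an unadjusted p under 0.05), where 20.9% of all genes were called. A missing call does not show equal levels, and the part of these markers was not tested there either. Mesenchyme markers were called higher in 6 of 10 at E8.5, 8 of 10 at E9.5 and 6 of 10 in the prominences. Of all genes 1.65%, 1.46% and 5.98% were.

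In 10 comparisons limma called none of the 8 genes. Mandibular against maxillary arch at E9.5 gave 0 of 8 (0.0702% of all genes called), also 0 at an unadjusted p under 0.05, with an Lhx8 difference of 0.82 (95% interval -0.62 to 2.26). It also gave 0 without maxillary libraries 4 and 5 (Lhx8 0.50) and without 3, 4 and 5, which held mandibular markers (Lhx8 -0.28). Cranial mesenchyme at E9.5 against E8.5 mesenchyme gave 0 of 8 (1.53% of all genes), and 0 unadjusted, with Twist1 at 0.06 (95% interval -1.14 to 1.27). At E10.5, maxillary arch against its ectoderm gave 0 of 8 (0.01%) and 4 unadjusted, maxillary arch against nasal prominences 0 (0.802%) and 1 unadjusted, and medial against lateral nasal prominence 0 (0.115%) and 3 unadjusted. With the fifth E10.5 maxillary library alone, which lacked surface epithelium markers, Prrx1 was at 2.12 against maxillary ectoderm and at -0.35 against the nasal prominences. That library resembled medial nasal library 1 (Pearson r 0.812 across genes), and 1 library allows no count of calls. The libraries labelled mandibular arch gave 0 against maxillary arch (0.772%, 3 unadjusted), 0 against lateral nasal eminence (0.0602%, 1 unadjusted) and 0 against E9.5 mandibular arch (6.98%, 2 unadjusted). Those labelled mandibular ectoderm gave 0 against the libraries labelled mandibular arch (0.135%, 2 unadjusted, of which Lhx6 had no overlap, 1 of 8 where 0.782% of all genes did so in that direction) and 0 against E9.5 mandibular arch (17.5%, 0 unadjusted).

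Differences between comparisons were tested for 3 pairs and limma called none of the 8 genes in any. The mesenchyme against neural difference at E9.5 less that at E8.5 had 1 gene at an unadjusted p under 0.05, Lhx8 at 2.15 (adjusted p = 0.444, with 0.532% of all genes called). The maxillary against nasal difference at E10.5 less the arch against cranial difference at E9.5 had 4, among them Lhx8 at -2.80 (95% interval -4.55 to -1.05, adjusted p = 0.254, with 0.12% called). With E9.5 maxillary arch reduced to libraries 1 and 2, Lhx8 was called there at -3.35 (adjusted p = 0.0433). The mandibular against maxillary difference at E10.5 less that at E9.5 had 3 (0.0652% called), and it rests on the libraries labelled mandibular arch.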

How the data were processed

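Laser-captured regions of CD1 embryos were measured on Affymetrix whole-transcript arrays, 1 per sample. The submitters' processing notes name RMA, without a version, and mm9 as the genome build. Linear ratios, deposited by the authors, were the values used. Every probe set had a median of 1 (within 6e-08) over the same 21 samples, a baseline that no label describes. The lowest ratio, 0.01, was shared by 62 values, none of these genes among them. No detection calls were used. The planned design had expected log2 levels. The log2 of each ratio deposited by the authors took their place, and no filter on dim genes could be applied to ratios.

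Of 35557 probe sets, 6701 had no value, and of the 28856 others 21789 with 1 gene symbol in the platform annotation were used, 1621 with several and 5446 with none were not. Entrez identifiers matched 21698 to the RefSeq gene table, with 0 renamed. Where a gene had several probe sets (999 genes), that of highest mean log2 ratio stood for it.

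Group means were fitted over 102 samples (80 residual degrees of freedom) with limma 3.58.1 in R 4.3.3, with 19 comparisons and 3 differences of comparisons as contrasts, eBayes, and Benjamini-Hochberg adjustment over 19938 genes within each. Where a side held several groups, the mean of the group means was used. The spread behind SE and p is shared by the 22 groups. The fit was tested on simulated data. The p-values measure the spread between these samples, and array number limits the precision. An E9.5 sample whose labels conflict (mandibular arch or epidermal ectoderm) was left out, and 4 E10.5 neuroepithelium samples whose title names the lateral and other labels the medial prominence were grouped as medial.

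Named were the 8 genes, up to 3 called genes of each list with the largest absolute difference in a comparison, and the 3 genes most like each by Pearson's r over the 22 group means, leaving aside predicted genes, small RNAs and chemosensory receptors. Some genes the rule takes are left out for length. The members, lists and rules were chosen with earlier results of these data known. Alternatives were array weights, quantile normalization, a robust prior with a variance trend, averaging over a gene's probe sets, compared groups alone, the replicate number as a block, 0.1 added to the ratio, 11 widely spread arrays (SD over 0.85) left out, placing samples of conflicting label in the other group, a fit without the libraries labelled mandibular at E10.5, and each library left out in turn. Added after seeing the data were the mean of 2 alike labelled mandibular ectoderm libraries and the omission of E10.5 maxillary libraries 1 to 4, of labelled mandibular arch 2 and 4 with lateral nasal 3, of otic libraries 3 and 5, and of E9.5 maxillary libraries 4 and 5 or 3 to 5. Promoters are from RefSeq on GRCm38.p6. Python 3.11.15, pandas 2.3.3 and matplotlib 3.10.9 were used.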

Additional observations from a re-analysis of the deposited data

Results flagged for a closer look

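Within groups of 4 to 7 libraries, 20 of 176 sets of 1 gene in 1 group held a library whose gap to the nearest other, over the group's range, passed Dixon's 95% critical value. Chance would flag about 1 in 20 sets. No cause was tested.

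For Twist1 these were E9.5 neuroepithelium library 2 at 0.00 and E10.5 midline neuroepithelium library 4 at -0.97, both high. For Twist2 they were E9.5 epidermal ectoderm library 2 at 2.50 and otic vesicle library 1 at 1.51, both high, and the E10.5 library labelled mandibular arch 1 at -0.70, which was low. Prrx1 stood out in E8.5 caudal neural epithelium library 3 at -0.29, high, and in E10.5 maxillary arch library 3 at 0.44, low.

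Lhx6 was high in E9.5 epidermal ectoderm library 7 at 1.21 and E10.5 maxillary arch library 5 at 1.66. Lhx8 was high in E8.5 mesenchyme library 4 at 0.10, in E9.5 neuroepithelium library 1 at 0.24 and in lateral nasal eminence library 4 at 3.09, and low in E9.5 mandibular arch library 5 at 0.93.

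Osr1 was high in E9.5 epidermal ectoderm library 1 at 2.55, in E10.5 maxillary arch library 3 at 1.55 and in the library labelled mandibular ectoderm 4 at 3.62, and low in E9.5 maxillary arch library 2 at -0.71. Osr2 was high in E10.5 maxillary arch library 3 at 2.34 and olfactory pit library 1 at 2.99, and low in E8.5 non-floor plate library 1 at -0.12. E10.5 maxillary arch library 3 stood out for Prrx1, Osr1 and Osr2, and its surface epithelium marker mean, 2.69, was the highest of its group.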

How the results depend on the processing

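Of 176 pairs of gene and comparison, 30 were called. Of these 20 kept their call under each alternative that was run for them, 10 lost it under at least 1, and 0 changed sign. Another 22 were called under an alternative alone. Fitted alone, first arch against cranial mesenchyme had 0 genes called (main 2) and the labelled mandibular against maxillary ectoderm 1 (main 2), E10.5 against E9.5 maxillary arch 0 (main 1) and nasal prominences against cranial mesenchyme 0 (main 1). Quantile normalization gave 1 in first arch against cranial mesenchyme, 1 in labelled mandibular arch against E9.5 mandibular arch (main 0) and 2 in nasal prominences against cranial mesenchyme. Array weights gave 1 in maxillary arch against nasal prominences, in labelled mandibular against maxillary arch, in labelled mandibular ectoderm against labelled mandibular arch and in 2 of the differences between comparisons (main 0 each), and 2 in medial against lateral nasal prominence, in both comparisons with E9.5 mandibular arch (main 0 each), in E10.5 against E9.5 maxillary arch and in nasal prominences against cranial mesenchyme. Array weights also called Prrx1 in first arch against cranial mesenchyme, 3 genes there. With 0.1 added, without widely spread arrays, without the libraries labelled mandibular in the fit, or without E9.5 maxillary libraries 4 and 5, E10.5 against E9.5 maxillary arch gave 2 in each case. With E9.5 maxillary arch reduced to libraries 1 and 2 it gave 1, Prrx1 (-1.71, adjusted p = 0.0485) in place of Osr2 (0.84, adjusted p = 0.0524), and the maxillary against nasal less arch against cranial difference gave 1 (main 0). Labelled mandibular arch against E9.5 mandibular arch gave 1 with 0.1 added, without widely spread arrays and without labelled mandibular arch 2 and 4 and lateral nasal 3. Without these last libraries medial against lateral gave 1 and nasal prominences against cranial mesenchyme 3 (Twist2, Lhx6 and Osr1), and that comparison gave 2 (Twist2 and Osr1) without widely spread arrays or without the labelled mandibular libraries in the fit.

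Leaving out 1 library at a time, the count of genes called ranged from 1 to 2 for first arch against cranial mesenchyme, from 0 to 1 for medial against lateral nasal prominence, from 1 to 2 for labelled mandibular against maxillary ectoderm, from 0 to 1 for labelled mandibular ectoderm and for labelled mandibular arch against E9.5 mandibular arch, from 0 to 3 for E10.5 against E9.5 maxillary arch and from 1 to 3 for nasal prominences against cranial mesenchyme. Elsewhere it stayed within 1.5 times the main count. Among the 52 pairs called at least once, signs reversed for Prrx2 in maxillary arch, E10.5 against E9.5 (0.17 with the fifth E10.5 library alone, -1.13 with all 5), for Lhx6 there (-0.0093 without E10.5 library 5 and up to 0.41 without another library, 0.29 with all) and for Lhx8 in labelled mandibular arch against E9.5 (0.91 without labelled mandibular 2 and 4, -1.45 with them). The cause was not tested. Of the 124 pairs never called, 45 changed sign under at least 1 alternative.

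By the rule used, the replicate numbers paired no 2 groups throughout. In 0 of 76 pairs of groups of a stage did all same-numbered libraries deviate together by a correlation over 0.1, and the median correlation was -0.0276 for same-numbered and 0.0078 for other libraries. E9.5 cranial mesenchyme and maxillary arch came close (0.0913 to 0.686, median 0.2486, against -0.0877 for other numbers). The rule asks for every same-numbered pair, so it cannot judge pairing of some libraries alone. The replicate block took only samples numbered by their title, which left out the 4 neuroepithelium samples grouped as medial. Nasal prominences were thus set against the lateral neuroepithelium alone, with Lhx6 at 0.54 (adjusted p = 0.2) and Osr1 at 0.90 (adjusted p = 0.16). There 4 genes were called against 6, and the block and the smaller reference cannot be told apart. No other call was lost.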

Other observations

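1 E9.5 sample, labelled both mandibular arch and epidermal ectoderm, was in no group. Its log2 ratios were 2.34 for Twist1, 1.90 for Twist2, 2.14 for Prrx1, 1.52 for Prrx2, 0.20 for Lhx6, 1.43 for Lhx8, 0.52 for Osr1 and 0.38 for Osr2. Rathke's pouch library 4 had Twist1 at 0.40 and Twist2 at 2.18, where the other 4 libraries of that group ran from -2.95 to -1.02 for Twist1 and from -0.89 to 0.08 for Twist2. Its Prrx1, at -0.90, stayed within the range of its group. No explanation was tested.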
